A study of Mus musculus with 6 samples.

Results

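The cathepsins described here are 10 genes, Ctsa, Ctsb, Ctsc, Ctsd, Ctsf, Ctsh, Ctsk, Ctsl, Ctss and Ctsz, taken by gene symbol from the gene table and from the isoform table of the series. They make up 10 of the 24459 genes and 33 of the 75457 isoforms listed there. The RNA came from perihematomal brain tissue, the tissue bordering the clot, of mice labelled WT on day 5 after an intracerebral haemorrhage (ICH, a bleed into the brain). In one group of 3 samples the mice had been given TEPP-46, and in the other group of 3 they had been given vehicle, on consecutive days after the bleed. TEPP-46 is known as an activator of the M2 form of pyruvate kinase, a glycolytic enzyme. All 6 samples share the haemorrhage and the day, and no sample without a bleed was analysed here. The strain, age and sex of the mice, the way the bleed was made and whether 1 sample is 1 animal are not stated by the labels, so each p-value reflects the spread between these samples alone, which may be technical. The libraries are named by their count columns, C1, C2 and C4 for vehicle and T1, T2 and T3 for TEPP-46, and the numbers carry no order.

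Cathepsins are proteases of the lysosome. They are made as inactive proenzymes, reach the lysosome with the help of mannose 6-phosphate receptors, are cut to their mature form in the acid compartment and are held in check by cystatins. In the brain they are abundant in microglia and macrophages, which take up debris and red cell remains after a bleed, and they are also made by neurons and other glia. By catalytic type, Ctsd encodes an aspartic protease, Ctsa a serine carboxypeptidase, and the other members cysteine proteases of the papain family.

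Library totals ran from 5286426 to 6025064 counts, and 18429 to 18985 genes had a count in a library. Defining markers of neurons (summed level 4404 to 5625 CPM, where CPM is the count scaled by the library total), astrocytes (3573 to 4205 CPM) and oligodendrocytes (5373 CPM in C4 and 13201 to 15385 CPM in the others) were present in all 6 libraries, as the tissue label says. Libraries stood apart within the vehicle group. C4 had the low oligodendrocyte level, and the summed choroid plexus and ependyma markers were 33.7 CPM in C4 and 64.0 CPM in C2 against 1868 to 4129 CPM in the others. C2 had the highest level of microglia and macrophage markers, given below beside the cathepsins that moved with them.

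All 10 cathepsins were tested, and none passed the test for a difference between TEPP-46 and vehicle. With edgeR's quasi-likelihood test, 0 of 10 members were called at a Benjamini-Hochberg adjusted p of 0.05, as were 0% of the 14441 genes tested. At an unadjusted p of 0.05 the count was also 0 of 10, against 5.93% of tested genes, and the lowest unadjusted p among the members was 0.627, for Ctsf. DESeq2 also called 0 of the 10, against 0.551% of the 15424 genes to which it gave an adjusted p. The 3 TEPP-46 libraries overlapped the 3 vehicle libraries in CPM in every member, so that 0 of 10 had groups that did not overlap, against 11.4% of tested genes. The fitted log2 fold change of TEPP-46 over vehicle was positive in 8 members and negative in 2, with a median of 0.07 beside 0.01 over all tested genes. In the authors' deposited table the 10 genes were likewise all given as not changed, with log2 fold changes from -0.08 for Ctsf to 0.07 for Ctsl and unadjusted p-values from 0.637 to 0.988.

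The levels lay further apart within the vehicle group than between the group means. Of the 10, 9 were highest in vehicle library C2, which was the highest library for 15.1% of tested genes. Vehicle library C4 was the lowest for 8 of the 10, against 25.3% of tested genes. From low to high, 6 members (Ctsb, Ctsc, Ctsd, Ctsl, Ctss and Ctsz) had the same order of libraries, C4, C1, T1, T2, T3 and C2, an order found in 1.13% of tested genes. Members move together within a library, so these counts are a description and not 10 independent observations.

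Ctsd, the main aspartic protease of the lysosome, lies on chromosome 7 (142375911 to 142388038, minus strand, GRCm38). Its level was 919, 3449 and 533 CPM for C1, C2 and C4, against 1152, 1815 and 2271 CPM for T1, T2 and T3. The vehicle libraries lay on both sides of the TEPP-46 libraries, with C2 above all 3 and C1 and C4 below. The means were 1634 ± 1584 CPM (SD, n = 3) for vehicle and 1746 ± 563 CPM for TEPP-46. The log2 fold change was 0.08 (SE 0.72, 95% interval -1.70 to 1.85, edgeR adjusted p = 0.998). The ratio of the highest to the lowest library was 6.48, larger than in 99.2% of the 6129 tested genes with a mean of 20 CPM or more, where the median ratio was 1.45.

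The upstream window of Ctsd holds CACGTG, the E-box core of the element through which TFEB, TFE3 and MITF, activators of lysosomal genes, are known to bind. This element is shown because cathepsins are counted among the classical lysosomal genes and most members were high and low in the same libraries. In RefSeq windows of 250 bases before each gene start (GRCm38.p6), 8 of the 10 members were matched, and 4 of these 8 genes (Ctsa, Ctsd, Ctsf and Ctsl) held CACGTG, against 6.02% of 32841 windows and 6.86% of 27018 genes. The full 10-base form of the element, which extends this core on both sides, was held by 0 of the 8 genes. It was found in 0.241% of windows and 0.27% of genes. Against so low a background, 0 of 8 cannot show whether the members differ from other genes. CACGTG reads the same on both strands. Some genes have more than 1 window, and Ctsb and Ctsh were not among those matched. The stretches that hold CACGTG are given 5′ to 3′ on the strand of the gene, with this core in capitals.
Ctsd, first match, 245 bases before the start, minus strand, chr7:142388039-142388077: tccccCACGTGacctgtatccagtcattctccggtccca
Ctsd, second match, 98 bases before the start, minus strand, chr7:142387908-142387937: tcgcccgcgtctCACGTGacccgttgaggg
Ctsa, 12 bases before the start of 1 of its 2 windows, plus strand, chr2:164833749-164833772: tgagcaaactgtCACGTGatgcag
Ctsl, 236 bases before the start, minus strand, chr13:64370739-64370768: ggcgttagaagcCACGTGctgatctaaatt
Ctsf, 79 bases before the start, plus strand, chr19:4855046-4855129: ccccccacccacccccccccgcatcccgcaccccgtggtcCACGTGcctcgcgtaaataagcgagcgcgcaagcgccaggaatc

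The second Ctsd match and those of Ctsa and Ctsl lie inside exons annotated in GENCODE, and the first Ctsd match and that of Ctsf lie outside annotated exons. Among genes with a match, the ratio of highest to lowest library was 6.48 in Ctsd, 2.91 in Ctsl, 2.43 in Ctsa and 1.33 in Ctsf. Among matched genes with none in their windows, it was 7.42 in Ctsc, 4.46 in Ctss, 4.07 in Ctsz and 1.76 in Ctsk. Whether CACGTG bears on these ratios was not tested. GAGGAA, the core bound by the myeloid factor PU.1, was searched on both strands and found in 3 of 8 (Ctsc, Ctsk and Ctss), against 23.3% of windows and 25.9% of genes. A match is a run of letters, and binding was not measured.

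**Figure D1:**
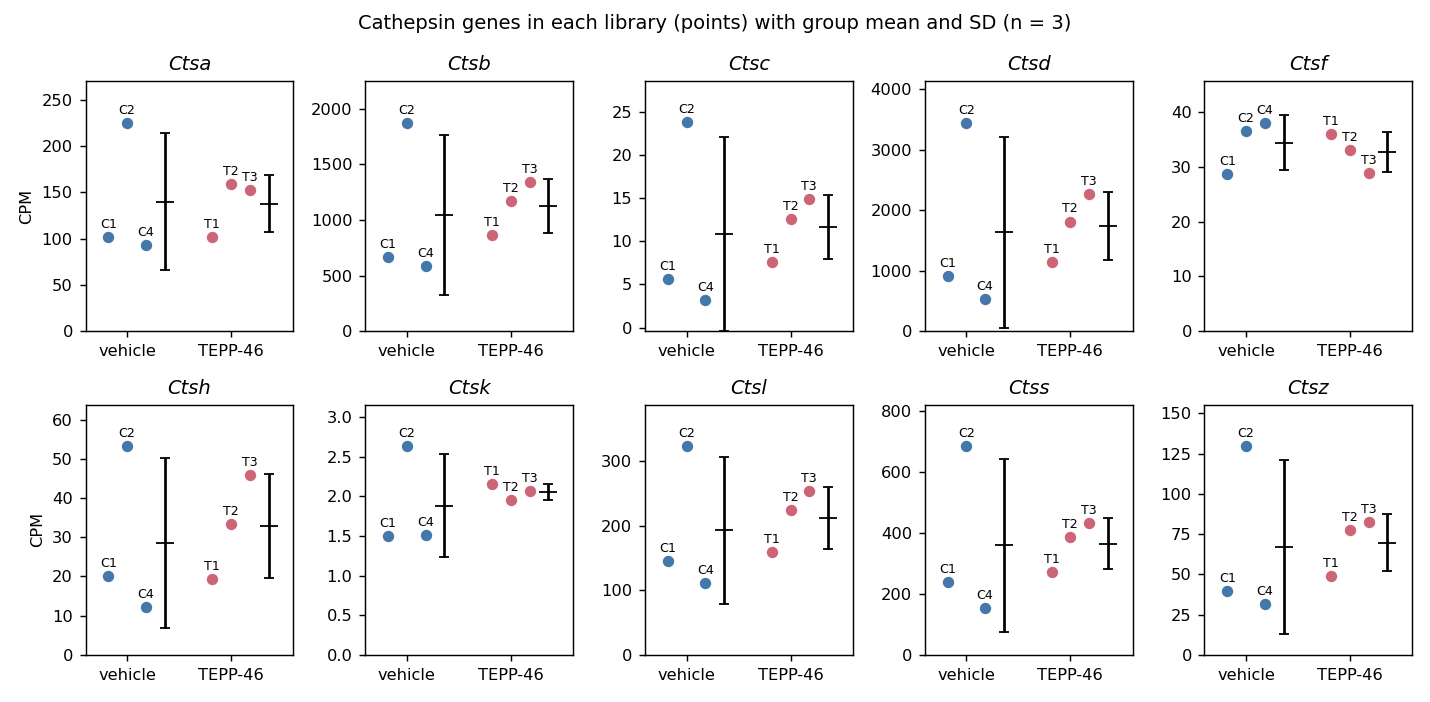
Level of each of the 10 cathepsin genes in each library, in CPM on a linear axis (blue, vehicle C1, C2 and C4; red, TEPP-46 T1, T2 and T3), with the group mean and SD (n = 3) as a bar beside the points. C2 is the highest point in every panel but that of Ctsf, and the points of the 2 groups overlap in all 10 panels.

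Among the cysteine proteases, Ctsb and Ctsl are general lysosomal endopeptidases. Ctsb (chromosome 14, 63122462 to 63145923) was measured at 668, 1874 and 588 CPM for C1, C2 and C4, against 867, 1172 and 1339 CPM for T1, T2 and T3. The group means were 1043 ± 720 CPM and 1126 ± 239 CPM (SD, n = 3), and the log2 fold change was 0.09 (SE 0.46, interval -0.99 to 1.18). Ctsl (chromosome 13, 64359337 to 64370890) stood at 145, 323 and 111 CPM in the vehicle libraries and at 159, 224 and 253 CPM in the TEPP-46 libraries, listed in the same sequence. For both genes C1 and C4 were below, and C2 above, every TEPP-46 library. The log2 fold change of Ctsl was 0.12 (SE 0.40, interval -0.81 to 1.05), and the edgeR adjusted p was 0.997 for both.

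Ctss encodes the cathepsin that stays active at neutral pH and trims the invariant chain of class II molecules in antigen-presenting cells. Ctss (chromosome 3, 95526786 to 95556403) had 240, 685 and 154 CPM for C1, C2 and C4, against 272, 388 and 435 CPM for T1, T2 and T3. Its means, 360 ± 285 CPM and 365 ± 83.6 CPM (SD, n = 3), gave a log2 fold change of 0.00 (SE 0.56, interval -1.36 to 1.36, edgeR adjusted p = 0.999). C2 was again the single vehicle library above the TEPP-46 range.

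The exopeptidases repeated this picture at lower counts. Ctsc, the dipeptidyl peptidase that activates serine proteases of immune cell granules (chromosome 7, 88278085 to 88310888), had 5.62, 23.9 and 3.22 CPM in vehicle and 7.63, 12.6 and 14.9 CPM in TEPP-46 libraries. These levels rest on 30, 136 and 17 counts and on 46, 71 and 79 counts. Its ratio of highest to lowest library, 7.42, was the widest of the 10 members. Ctsh, an aminopeptidase (chromosome 9, 90054152 to 90076089), had 20.2, 53.2 and 12.1 CPM against 19.3, 33.4 and 45.8 CPM. Ctsz, a carboxypeptidase also called cathepsin X (chromosome 2, 174427493 to 174439039), had 39.9, 129 and 31.8 CPM against 49.3, 77.4 and 82.7 CPM. The log2 fold changes were 0.07 (SE 0.68) for Ctsc, 0.18 (SE 0.55) for Ctsh and 0.04 (SE 0.54) for Ctsz, with edgeR adjusted p-values of 0.997 to 0.998. In Ctsh, T1 lay between C4 and C1, so that 1 TEPP-46 library was below a second vehicle library.

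Ctsa, the serine carboxypeptidase that protects the lysosomal enzymes Neu1 and Glb1 from degradation (chromosome 2, 164832873 to 164841032), had a narrower range, with a ratio of highest to lowest library of 2.43. Its level was 102, 225 and 92.9 CPM for C1, C2 and C4, against 102, 159 and 152 CPM for T1, T2 and T3. T1 lay at the level of C1. The log2 fold change was -0.04 (SE 0.35, interval -0.86 to 0.78, edgeR adjusted p = 0.998).

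Ctsf did not share the pattern, and Ctsk had too few counts to show it clearly. Ctsf, a cysteine protease whose long propeptide carries a cystatin-like domain (chromosome 19, 4855130 to 4860918), had 28.7, 36.5 and 38.0 CPM for C1, C2 and C4, against 36.02, 33.1 and 28.8 CPM for T1, T2 and T3. It was highest in C4 and lowest in C1, and its ratio of highest to lowest library, 1.33, was above that of only 30.5% of tested genes of 20 CPM or more. The log2 fold change of Ctsf, -0.09 (SE 0.18, interval -0.49 to 0.31, edgeR adjusted p = 0.997), had the narrowest interval of the members. Ctsk, best known as the collagen-cutting protease of osteoclasts (chromosome 3, 95499256 to 95509362), rested on 8, 15 and 8 counts in vehicle and 13, 11 and 11 counts in TEPP-46 libraries, with C2 the highest. Its log2 fold change was 0.11 (SE 0.40, interval -0.79 to 1.02), and the fit does not exclude a difference inside this interval. Ctsd, with far more counts, had a wider interval of -1.70 to 1.85.

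**Figure D2:**
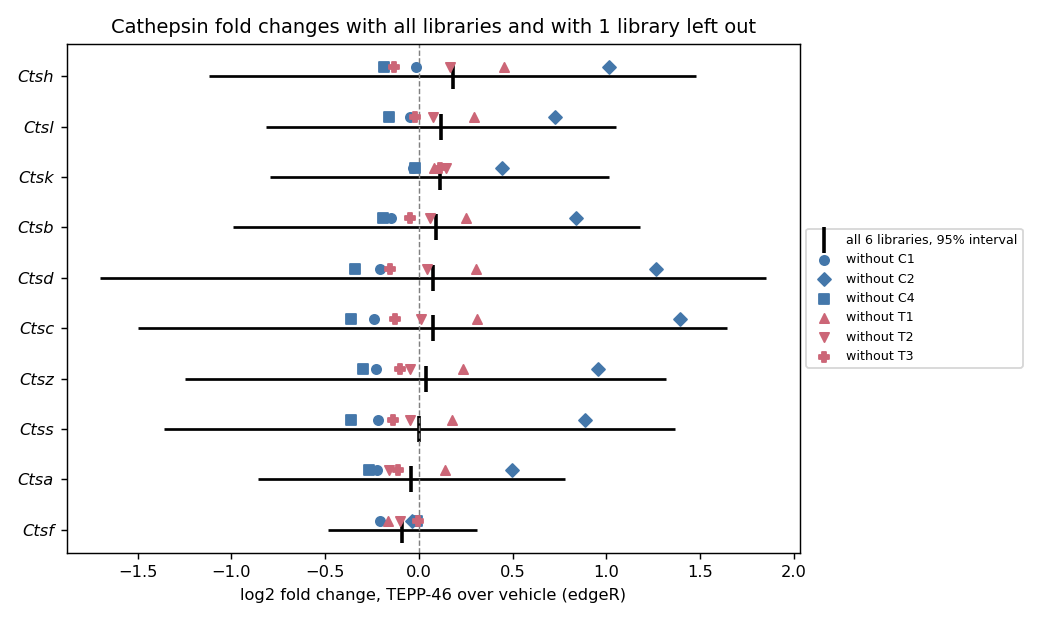
Fitted log2 fold change of TEPP-46 over vehicle for each cathepsin gene (black tick, all 6 libraries, with the 95% interval as a line) and the value when 1 library was left out (blue symbols, a vehicle library; red symbols, a TEPP-46 library). All 10 intervals span 0, and the values without C2 lie to the right of the others in every gene but Ctsf.

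The comparison depended most on C2. Each library was left out in turn. C2 was the highest library in 9 of 10 members, so leaving it out was bound to raise their fold changes and narrow the vehicle group. The members also move together, so the counts without C2 are a description. Without C2, 9 of 10 log2 fold changes were positive with a median of 0.86, beside 0.01 over all tested genes, and 8 of 10 had an unadjusted p under 0.05, all higher in TEPP-46. Without that library 4.51% of the 14752 genes tested were higher at this level and 10.2% differed in either direction. None of the 8 passed adjustment. The closest was Ctsb, with a log2 fold change of 0.84 (SE 0.18, unadjusted p = 0.00109, edgeR adjusted p = 0.117). Ctsd stood at 1.26 (SE 0.31, edgeR adjusted p = 0.178), Ctss at 0.89 (SE 0.24, edgeR adjusted p = 0.206) and Ctsc at 1.39 (SE 0.39, edgeR adjusted p = 0.224). Ctsf was at -0.03 and Ctsk at 0.44 with unadjusted p-values of 0.869 and 0.370 in edgeR. All 10 log2 fold changes were negative without C1 (median -0.21) and without C4 (median -0.23), where Ctsa and Ctsf were negative with all 6 libraries too. C1 and C4 were the low vehicle libraries in most members, so a fall without either was likewise bound to occur. The lowest edgeR adjusted p-values were 0.874 and 0.99997, with 0 of 10 at an unadjusted p under 0.05 in each. Without TEPP-46 library T3, 9 of 10 were negative (median -0.11), also with 0 of 10 at that level.

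With all 6 libraries but sample quality weights in limma voom, 9 of 10 log2 fold changes were positive with a median of 0.34 and a lowest limma adjusted p of 0.952. The vehicle group was the wider one in all 10 members. The ratio of highest to lowest library was larger among vehicle than among TEPP-46 libraries in 10 of 10, against 61.1% of tested genes, and for Ctsd it was 6.48 in vehicle and 1.97 in TEPP-46. No test of this difference in spread was made. Of the 8 members with a mean of 20 CPM or more, 6 had a ratio over all 6 libraries above 2.86, the 95th percentile of tested genes of that level.

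The cathepsins took up 0.217%, 0.680% and 0.156% of all counts for C1, C2 and C4, against 0.267%, 0.392% and 0.462% for T1, T2 and T3. The share of Ctsd in this sum was highest in C2 and lowest in C4. It held 42.4%, 50.7% and 34.0% of cathepsin counts in the vehicle libraries and 43.2%, 46.3% and 49.1% in the TEPP-46 libraries. Ctsb held 30.8%, 27.5% and 37.6%, and then 32.5%, 29.9% and 29.0%, with the highest share in C4, where Ctsd had its lowest. Between genes, levels were set side by side as CPM per 1000 bases of the most abundant isoform. On this scale the mean over the 6 libraries was 794 for Ctsd, 268 for Ctss and 229 for Ctsb, then 47.5 for Ctsz, 38.1 for Ctsa and 32.8 for Ctsl, 19.0 for Ctsh and 16.9 for Ctsf, and 4.54 for Ctsc and 1.30 for Ctsk. Over the 6 libraries, the ranges of neighbours in this order overlapped, as for Ctss (113 to 506) and Ctsb (124 to 395), except between Ctsb and Ctsz (22.1 to 89.8) and between Ctsf (14.5 to 19.2) and Ctsc (1.29 to 9.57). Overlapping ranges do not mean that the order changed within a library. Ctsd and Ctss stood at 250 and 113 in C4, and at 1622 and 506 in C2. The order of the means depends on the division by length, which is that of 1 isoform per gene. A nanopore read can cover a whole cDNA, and without the division the means in CPM were 1084 for Ctsb and 362 for Ctss, and 202.5 for Ctsl, 139 for Ctsa and 68.4 for Ctsz. Ctsl is lowered most, since its leading isoform has 6168 bases.

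Markers of microglia, macrophages and blood, and some markers of astrocytes, endothelial cells and fibroblasts, were high and low in the same libraries as the cathepsins. The 11 markers of activated microglia summed to 561, 5342 and 330 CPM for C1, C2 and C4, against 832, 2400 and 3256 CPM for T1, T2 and T3, the order that 6 cathepsins had. All 10 of those that were tested were highest in C2, and the leading ones were Spp1, with 176, 3734 and 108 CPM and then 362, 1499 and 2220 CPM, and Tyrobp, with 179, 587 and 109 CPM and then 187, 327 and 410 CPM. Itgax was at 0 in at least 1 library. The 10 homeostatic microglia markers, led by Fcrls and Csf1r, ran from 342 to 1030 CPM in vehicle and from 553 to 763 CPM in TEPP-46, with all 10 highest in C2. Monocyte and macrophage markers, led by Lyz2 and Adgre1, ran from 39.2 to 586 CPM and from 96.8 to 302 CPM, and red blood cell markers, led by the globin genes Hba-a2 and Hba-a1, from 319 to 1053 CPM and from 560 to 748 CPM. Both lists were highest in C2 and lowest in C4. Neutrophil markers, led by Lcn2 and S100a8, summed to 1.32 to 45.1 CPM in vehicle and 7.14 to 37.7 CPM in TEPP-46, and Camp, Mmp8, Ngp, S100a8 and S100a9 were at 0 in at least 1 library. The summed astrocyte level was carried by Aldoc and Slc1a2, but 6 of the 8 astrocyte markers were highest in C2 and 5 lowest in C4, among them Gfap, the filament protein of reactive astrocytes, with 175, 417 and 59.4 CPM and then 158, 247 and 348 CPM. Of the endothelial markers, 4 of 7 were highest in C2, against 15.1% of tested genes, and 2 of 7 lowest in C4, against 25.3%. For the mural and fibroblast markers it was 3 of 8 highest in C2 and 2 of 8 lowest in C4, beside the same shares of tested genes. Col3a1, highest in C2, had 2.25, 10.53 and 0.757 CPM and then 1.49, 5.87 and 7.35 CPM, and was picked with its values known. Others of the list went elsewhere, with Dcn highest in C1 and Acta2 in C4. In bulk tissue, fewer cells of a type and less RNA per cell cannot be told apart. The part of these cell types in the cathepsin levels was not tested.

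**Figure D3:**
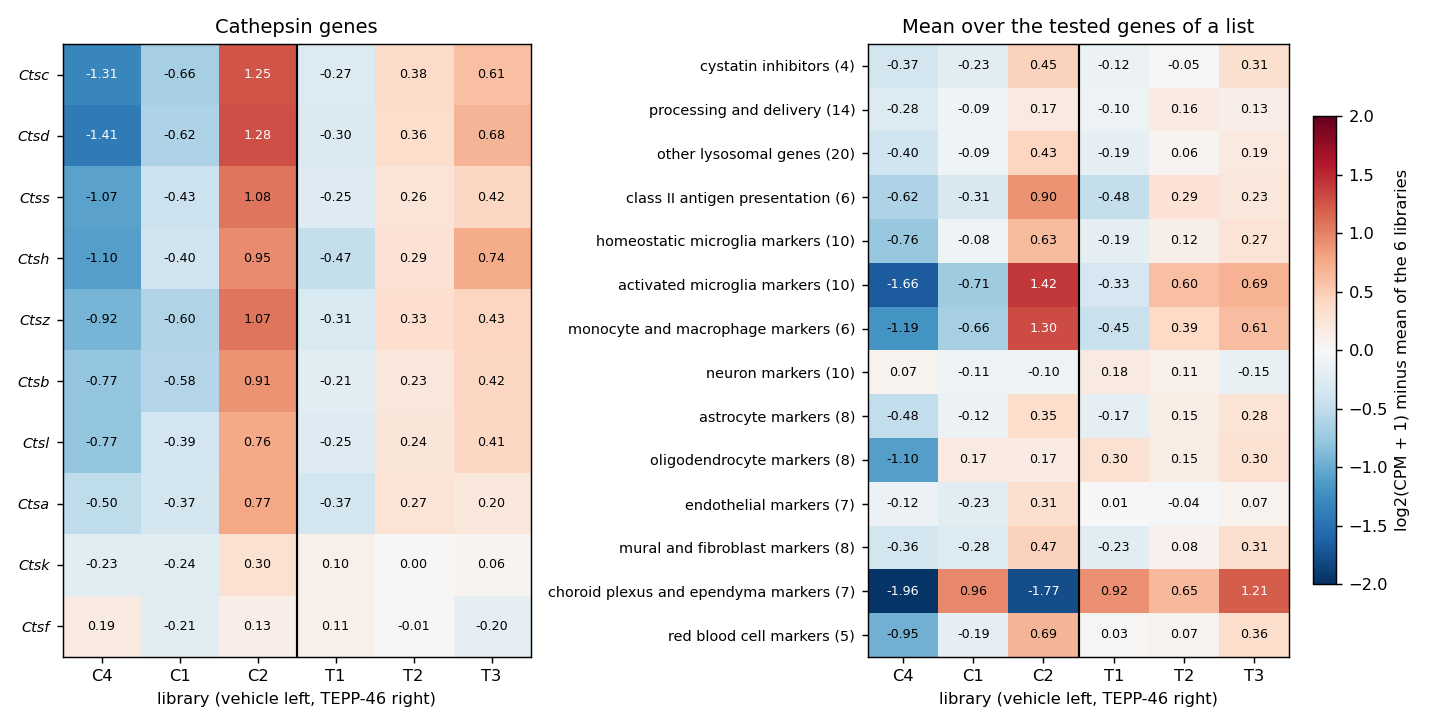
Deviation of each cathepsin gene (left) and of the mean of each fixed gene list (right, number of tested genes in brackets) from its own mean over the 6 libraries, in log2(CPM + 1) units, with vehicle libraries left and TEPP-46 libraries right of the black line. Most cathepsins are low in C4 and C1 and high in C2, as are the activated microglia and the monocyte and macrophage lists. The mean of the neuron list stays between -0.15 and 0.18, but single neuron markers, not drawn, differ. In C2, Penk was at 0.83 and Snap25 at -0.55.

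The genes with the most similar pattern were sought for the 5 members with a mean of 100 CPM or more, by the root mean square difference in centred log2(CPM + 1) over the 6 libraries, among 6121 tested genes of 20 CPM or more. For Ctsd the nearest were Tyrobp (0.11), Fcer1g (0.14) and C1qb (0.16), beside a median of 0.92 over all candidates. Tyrobp and Fcer1g encode signalling adaptors of myeloid receptors, and C1qb a chain of complement C1q. For Ctss they were Trem2 (0.07), a lipid-sensing receptor that signals through Tyrobp, Aif1 (0.08), which encodes the microglia marker Iba1, and C1qb (0.10), beside a median of 0.73. For Ctsl they included Lgmn (0.06), which encodes an asparagine-specific lysosomal protease, and Unc93b1 (0.07), and for Ctsb they included Unc93b1 (0.07) and Creg1 (0.10). Unc93b1 encodes a transporter of nucleic acid-sensing Toll-like receptors. For Ctsa they were Anxa3 (0.11), Dhrs1 (0.12) and Apoe (0.13). Among the members themselves, Ctsc and Ctsd were the closest pair (0.06) and Ctsd and Ctsf the farthest apart (0.92). These distances share the same 6 libraries and their depth, and they carry no test.

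The inhibitors of cathepsins were not called either. Of 7 cystatin genes, 4 were tested, 0 were called and all 4 log2 fold changes were negative, with a median of -0.03. Cst3, cystatin C, had 2186, 2990 and 2169 CPM for C1, C2 and C4, against 2395, 2262 and 2601 CPM for T1, T2 and T3. Cstb, the cytosolic cystatin B, had 30.7, 54.9 and 36.9 CPM and then 37.2, 40.2 and 46.2 CPM. Cst7, cystatin F, which inhibits lysosomal cysteine proteases in immune cells, had 2.06, 8.07 and 0.189 CPM and then 1.83, 3.02 and 5.65 CPM. Like most of the cathepsins it was highest in C2 and lowest in C4, where it rested on 1 count. Stfa1, Stfa2 and Stfa3 were at 0 in all 6 libraries. Of the 4 tested, 3 were highest in C2, and Cst6 was highest in C4.

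Of 14 genes for the processing and delivery of lysosomal enzymes, all were tested and 0 were called, with 12 positive log2 fold changes and a median of 0.11. Psap, the precursor of the saposins, had 4785, 5866 and 4556 CPM in vehicle and 5033, 5285 and 5131 CPM in TEPP-46 libraries. Gnptg, a subunit of the enzyme that starts the mannose 6-phosphate tag, had 338, 347 and 317 CPM and then 344, 361 and 389 CPM. Lgmn, which cuts several cathepsins into 2 chains, had 120, 262 and 91.4 CPM and then 143, 181 and 203 CPM, in the order of Ctsl. The 20 other lysosomal genes gave 10 positive and 10 negative log2 fold changes with a median of 0.01, and 0 were called. Their summed level ranged 1.31-fold, and the 2 most abundant were Atp6v0c, a proton pump subunit that was highest in C4 (1016 CPM against 815 to 854 CPM elsewhere), and the membrane protein Cd63 (390, 883 and 337 CPM, then 434, 557 and 769 CPM). The sum is weighted towards the abundant genes. Counted gene by gene, 13 of the 20 were highest in C2, against 15.1% of tested genes. In C4, 14 of the 20 were lowest, against 25.3%, so most of this list went with the cathepsins. Of 5 further cathepsins, Ctso alone had enough counts to be tested, at 13.3, 15.6 and 12.5 CPM in vehicle and 13.6, 17.3 and 17.5 CPM in TEPP-46 libraries (log2 fold change 0.21, SE 0.20, edgeR adjusted p = 0.985).

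At the level of isoforms, all 33 had a count, 27 of them annotated and 6 new without a reference identifier, and 21 were tested. By edgeR 0 of the 21 were called, as were 0% of the 33854 isoforms tested, and 0 of 21 had an unadjusted p under 0.05, against 5.77% of isoforms, with a lowest p of 0.538. DESeq2 called 0.442% of the 33280 isoforms to which it gave an adjusted p, and 0 of the 10 leading cathepsin isoforms. Of the 21, 19 were highest in C2, against 12.9% of all tested isoforms. Usage, meaning how a gene's counts divide among its isoforms, could be tested in 7 cathepsin genes and was called in 0, against 0.0131% of the 7639 genes tested.

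In the genes with the most counts the shares of isoforms lay within a few percentage points in all 6 libraries. Ctsd-202, the leading isoform of Ctsd, held 59.1%, 57.6% and 59.5% of its counts for C1, C2 and C4, against 58.7%, 57.5% and 57.7% for T1, T2 and T3. It encodes a coding sequence of 1230 bases in a transcript of 2127 bases, and Ctsd-201, which held the rest, one of 1212 bases in a transcript of 1922 bases. Ctsb-201 held 60.0% ± 1.90 (SD, n = 3) of the vehicle and 58.9% ± 1.62 of the TEPP-46 counts, and 2 new isoforms made up the other 40.8% of Ctsb counts over all libraries. Ctsl-205, of 6168 bases, held 54.8% ± 2.71 and 53.1% ± 1.12. Nearly all the rest was Ctsl-201, of 1971 bases, with a coding sequence of the same 1002 bases.

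The leading isoform was compared in 8 genes with exact two-sided permutation tests, which cannot go below p = 0.1 with 3 against 3. The smallest p was 0.2, for Ctsh-201 (vehicle 88.3% ± 2.26, TEPP-46 85.1% ± 2.74, SD, n = 3, exact permutation test), and Benjamini-Hochberg adjusted values over the 8 genes were 0.60 to 0.80. The second isoform of Ctsh, Ctsh-202, is annotated as a target of nonsense-mediated decay and held 10.2% of Ctsh counts. Ctsc-201 had the widest shares, from 82.4% in C4 (exact binomial 95% interval 56.6% to 96.2%, from 17 counts) to 97.8% in T1 (88.5% to 99.9%). Each interval covers counting error only and takes every count as a separate read. Ctsf and Ctsk were listed with 1 isoform each.

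Ctss shows a limit of the isoform counts. Ctss-201 and Ctss-202 both have 1355 bases in 8 exons, with coding sequences of 1023 and 1020 bases, and their counts differed by 1 to 6 in each library (for example 1852 and 1858 in C2), a gap below the square root of either count. The 2 new isoforms of Ctsb differed by 26 to 103 counts. How the authors assigned reads that match several isoforms is not given in the sources used, so shares of such pairs are uncertain. Gene levels carry a similar limit where genes overlap. In the GENCODE annotation Ctsd shares 6757 bases with Gm49369 on the same strand. Ctss (557 bases with Hmgb1-ps5) and Ctsl (395 bases with Gm49230) overlap pseudogenes on the same strand. Genes on the opposite strand overlap Ctsa (Pltp and Neurl2), Ctsb (Fdft1), Ctsc (Gm26522, 4743 bases), Ctsl (Gm47123) and Ctsz (Nelfcd, 10 bases). The use of strand in counting is likewise not given.

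**Figure D4:**
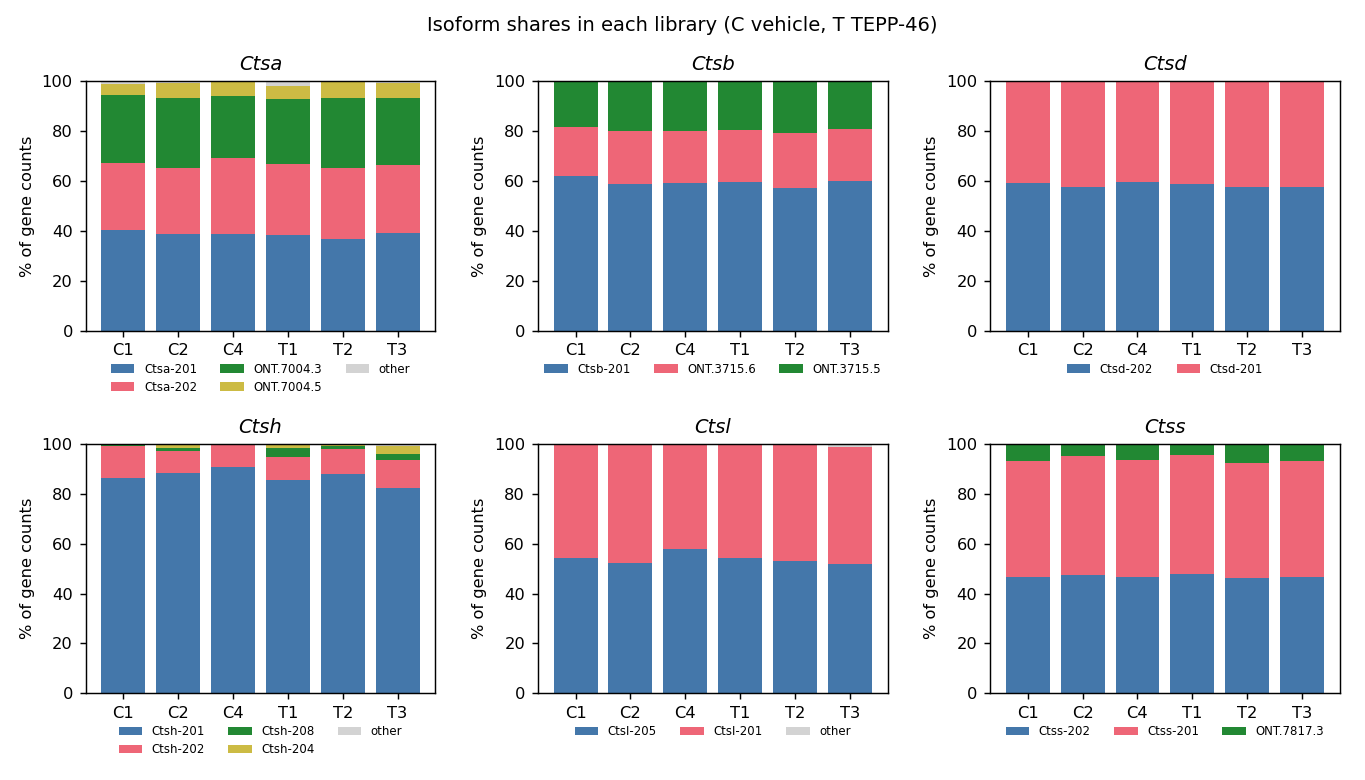
Share of each isoform in the counts of its gene, in percent on an axis from 0 to 100, for 6 cathepsin genes with several isoforms in each library (C vehicle, T TEPP-46); isoforms under 1% of a gene's counts are joined as other. The bars of a gene look alike in all 6 libraries, with Ctsd-202 between 57.5% and 59.5%.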

How the data were processed

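Per the labels' protocols, libraries were prepared from total RNA with a nanopore cDNA-PCR kit (SQK-PCS109). Raw counts per gene and per isoform were deposited in 2 tables, per the file headers, for 6 libraries. They also hold p-values, log2 fold changes and calls of the authors (DESeq2 per the file headers, DESeq 1.10.1 and GRCm38 per the submitters' processing notes). No aligner or counting tool is named: these were not given in the sources used here. A further 12 columns of values per library were not used.

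CPM was computed from the counts and library totals. Genes and isoforms were tested with edgeR 4.0.16 (R 4.3.3: filterByExpr, TMM, robust quasi-likelihood F test, group as the single term) over the whole tables, called at a Benjamini-Hochberg adjusted p under 0.05. Isoform usage was tested with diffSpliceDGE and Simes p-values, and shares of leading isoforms with exact permutation tests. The fits were tested on simulated data. Alternatives were DESeq2 1.42.0, other scaling, filters and quality weights (limma 3.58.1), and leaving out each library. The rule for naming genes of a fixed list was its called genes, or else the 2 with the highest mean CPM. It was not carried out for the neuron, oligodendrocyte, endothelial, mural and fibroblast, and choroid plexus and ependyma lists. Other genes named (Lgmn, Lamp1, Cst6, Cst7, Gfap, Col3a1, Dcn, Acta2, Penk, Snap25, and genes at 0 in some or all libraries) were chosen after their values were seen, apart from those named by nearest pattern. Of the genes nearest in pattern, 1 is not reported here. The members and lists were chosen with earlier results of these data known. No 2 libraries of a group agreed within sampling noise (chi-square per degree of freedom 5.53 to 23.9).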

Additional observations from a re-analysis of the deposited data

How the results depend on the processing

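No cathepsin gene was called under any of the 11 other gene settings, and no leading isoform under the 9 isoform settings. Over all genes, the count called was 0 in edgeR, 85 with DESeq2, and from 0 to 43 when 1 library was left out, 43 of them without C2. Isoforms called numbered 0 in edgeR, 147 with DESeq2, and 0 to 178 when 1 library was left out, with 1 without C1 and 178 without C2. Genes with changed isoform usage numbered 1 by Simes p-values, 0 with the gene-level F test, 0 with isoforms of a total count of 10 or more, and 0 to 1 by Simes when 1 library was left out. By the gene-level F test it was 6 without C1 and 4 without C2. Over these 3 counts, 11 values moved and 17 did not.

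For single members, the sign changed in Ctss with DESeq2 (-0.00984), RLE scaling (-0.00981) and the filter on a count above 0 (-0.015), in Ctsa with limma voom and quality weights (0.15), and in Ctsz-201 with the total count filter (-0.00418). The cause was not tested. The quality weights also moved Ctsb to 0.37, Ctsc to 0.60 and Ctsd to 0.53. When 1 library was left out the log2 fold changes ran from -0.26 to 0.50 in Ctsa, -0.19 to 0.84 in Ctsb, -0.36 to 1.39 in Ctsc, -0.34 to 1.26 in Ctsd, -0.21 to -0.00382 in Ctsf, -0.18 to 1.01 in Ctsh, -0.0296 to 0.44 in Ctsk, -0.16 to 0.73 in Ctsl, -0.36 to 0.89 in Ctss and -0.30 to 0.96 in Ctsz. For the leading isoforms they ran from -0.33 to 0.41 in Ctsa-201, -0.23 to 0.78 in Ctsb-201, -0.37 to 1.48 in Ctsc-201, -0.37 to 1.21 in Ctsd-202, -0.25 to -0.0315 in Ctsf-201, -0.26 to 0.94 in Ctsh-201, -0.0757 to 0.42 in Ctsk-201, -0.18 to 0.63 in Ctsl-205, -0.40 to 0.87 in Ctss-202 and -0.33 to 0.93 in Ctsz-201. The highest value was the one without C2 in each of these except Ctsf and Ctsf-201. The difference in the share of the leading isoform (TEPP-46 minus vehicle, percentage points) moved most in Ctsc, from 5.99 to 2.76 without C4 and 8.64 without C2. With new isoforms left out it was -1.50 in Ctsa and 0.0167 in Ctss, and in Ctsb and Ctsz 1 isoform was left, so no comparison remained.

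No paired analysis was possible because the numbers of the count columns (C1, C2, C4 and T1, T2, T3) do not match the numbered samples of the labels, so the replicate block was not run. Ctsk and Ctsc rest on the fewest counts of the 10 genes.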

Other observations

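Class II antigen presentation, the pathway in which Ctss acts, had few counts in these libraries. Its 7 listed genes summed to 45.9, 110 and 39.7 CPM for C1, C2 and C4, against 41.5, 69.5 and 67.8 CPM for T1, T2 and T3. By edgeR 0 of the 6 tested were called, with 2 positive and 4 negative log2 fold changes and a median of -0.13. Of these 6, 5 were highest in C2, against 15.1% of tested genes, and 4 lowest in C4, against 25.3%. The most abundant were H2-DMa (18.2, 21.6 and 20.6 CPM, then 18.8, 19.6 and 24.9 CPM), a chaperone that loads peptides, and H2-Ab1 (12.7, 39.3 and 7.76 CPM, then 8.13, 24.4 and 18.7 CPM).

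Among the other lysosomal genes, Lamp1, a major protein of the lysosomal membrane, was the 1 of 20 whose groups did not overlap, against 11.4% of all tested genes, and was picked with its values known. It had 94.4, 51.7 and 144 CPM in vehicle and 36.7, 51.0 and 49.4 CPM in TEPP-46 libraries, with a log2 fold change of -1.09 (SE 0.33, unadjusted p = 0.00994, edgeR adjusted p = 0.646), while 5.93% of tested genes had an unadjusted p under 0.05. C2, the library highest in 9 of the cathepsins, was the lowest vehicle library for Lamp1. Ctse, Ctsw and Napsa were each at 0 in at least 1 library, and Ctsg was at 0 in all 6.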
